A study of Mus musculus with 98 samples.

Results

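EnVL is the label that the deposited annotation of the mouse thymic stroma gives to the endothelium of veins and lymphatic vessels. All cells carrying this label were taken, which gave 838 of the 36208 labelled cells (2.31%) in the 8 libraries of the age series. They made up 22.9% of the 3653 endothelial cells, the others being the 2366 cells labelled EnC and the 449 labelled EnA, the 2 other endothelial labels. The EnVL cells came from every library: 31 at E12.5, 97 at E13.5, 335 at E16.5, 95 and 83 at P0, and 100 and 97 at W4.

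The study asked how the nonepithelial stroma of the thymus is composed and how it changes with age. Single cells were taken from wild-type C57BL/6 mice on embryonic days E12.5, E13.5 and E16.5, on the day of birth (P0) and at 4 weeks (W4), with 1 library for E12.5, 1 for E13.5 and 2 for every later age, without any transgene or treatment. Live cells lacking Ter119, CD45 and EpCAM had been sorted, which removes red blood cells, leukocytes and epithelium, and W4 samples had also been depleted of CD45-bearing cells on beads. The thymi of E12.5 and E13.5 were pooled from 2 litters, so that these ages have no replicate. Bulk RNA of sorted CD31+ cells, which were not split by endothelial label and so are not EnVL alone, came from 6 libraries at P0 and 6 at 4 weeks of wild-type mice. The titles of these bulk libraries carry the prefix TXCK or DFCK, each present at both ages, and the meaning of the prefixes is not given.

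Blood leaves the thymus through postcapillary venules and veins, whose endothelial cells control the passage of leukocytes through the vessel wall. P-selectin, encoded by *Selp*, and von Willebrand factor, encoded by *Vwf*, are stored in Weibel-Palade bodies and released on activation; P-selectin then lets leukocytes roll, and ICAM-1, encoded by *Icam1*, lets them adhere firmly. Progenitors enter the postnatal thymus across such venules, while lymphatic endothelium, specified by the transcription factor PROX1, drains tissue fluid and displays the chemokine CCL21.

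The summed UMIs (unique molecular identifiers, each counted once per captured transcript) of the EnVL cells ranged from 489878 to 2665374 per library, and the median per cell fell from 15242 at E12.5 to 7577 in W4 replicate 2. No barcode was shared between EnVL cells of different libraries, and 4 EnVL barcodes also occurred among other cells of another library. Of 11 pan-endothelial genes none was at 0 in any library, their summed level being 4469 to 9404 CPM (UMIs scaled to a total of 1000000 for the EnVL cells of a library). The summed level was 22.5 to 121 CPM for markers of thymocytes and leukocytes, 0 to 49.6 for epithelial, 14.3 to 428 for mural and 36.7 to 2679 for fibroblast markers, the last being highest in P0 replicate 1. Red cell genes reached 11745 CPM in P0 replicate 2 and 11015 CPM in W4 replicate 2, against 121 and 324 CPM in the other library of each age; 12 EnVL cells held more than 10000 CPM of red cell, fibroblast or mural markers. Without them, a choice made after the data were seen, 1837 in place of 1670 genes (16.1% of those tested) were called between E16.5 and P0 and 1552 in place of 1512 between P0 and W4. Of 6 fibroblast genes 3 were called higher at P0 than at E16.5, against 8.87% of all tested genes. At W4, 4 were called lower than at P0, against 7.73%. Of 5 red cell genes none was called at either step by edgeR or DESeq2. With edgeR 2 and 0 of them had an unadjusted p under 0.05. Of 5 mural genes tested 1 was called higher at P0 (median 1.53), with 0 by DESeq2, and 0 were called at W4. Of 8 thymocyte and leukocyte genes tested 1 was called higher at each step (medians 1.09 and 1.17). Of all tested genes 6.88% were called higher at W4.

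The label was first set against its markers. The annotation was made by clustering the same counts, so that levels of EnVL against EnC and EnA are descriptions without a test. *Icam1* was higher in EnVL than in both other labels in 8 of 8 libraries, by a median of 1.24 (range 0.79 to 1.88) on the log2(CPM + 1) scale. *Selp* and *Vwf* were higher in 6 of 8 libraries, by medians of 4.27 and 1.08. The exceptions for both genes were E12.5 and E13.5, where EnA held 299.8 and 313 CPM of *Vwf* against 206 and 171 CPM in EnVL. Hence all 3 markers were highest in EnVL from E16.5 on, and at the 2 earliest ages *Icam1* alone of the 3. E12.5 held 10 EnA cells only, below the 20 cells asked for in the tests, and 1 of these 10 held a *Selp* UMI, so that comparisons with EnA at this age rest on few cells.

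Of the further venous genes, *Nr2f2*, which encodes the transcription factor COUP-TFII of venous identity, and *Nrp2*, a co-receptor of VEGF-C, were higher in EnVL in 8 of 8 libraries, by medians of 0.98 and 0.63. The same held for *Ackr1*, the chemokine-scavenging receptor of venules, with a median of 4.97, for *Lrg1*, a secreted leucine-rich glycoprotein, with 2.39, and for *Il6st*, the shared signalling receptor of the interleukin-6 family, with 1.30. *Ephb4*, *Emcn* and *Vcam1* were higher in 6 libraries and *Aplnr* in 5. Among lymphatic genes, *Prox1* and *Lyve1* were higher in 7 libraries and *Ccl21a* in 5.

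Some of the genes with the largest smallest difference from both other labels over the 8 libraries were the following. *Lbp*, which encodes lipopolysaccharide-binding protein, averaged 203 CPM in EnVL, 23.6 in EnC and 7.59 in EnA. Mean levels in EnVL and EnC were 105 and 19.9 CPM for the serpin *Serpina3g*, 323 and 132.3 CPM for *Csf2rb*, the shared receptor chain for interleukin-3 and GM-CSF, and 67.2 and 15.4 CPM for the clotting factor *F8*. *Lbp* also changed with age in EnVL: it rose by 1.90 on the log2 scale from E16.5 to P0 (edgeR, adjusted p = 8.1e-05) and fell by 3.23 from P0 to W4 (edgeR, adjusted p = 3.4e-06).

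**Figure D1:**
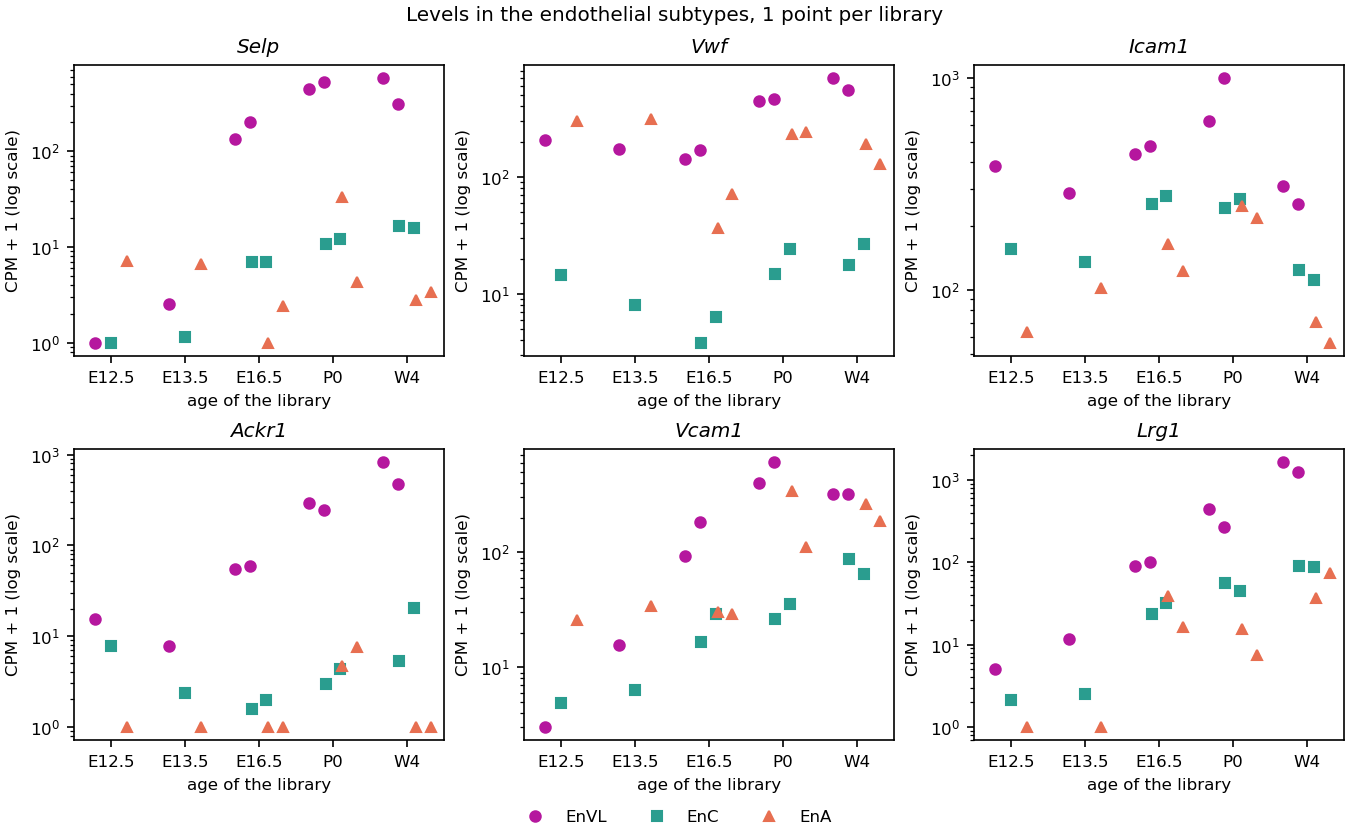
Levels of *Selp*, *Vwf*, *Icam1*, *Ackr1*, *Vcam1* and *Lrg1* in EnVL, EnC and EnA at the 5 ages, as CPM + 1 on a log axis, 1 point per library. *Ackr1* and *Lrg1* in EnVL climb at each step from E13.5 to W4, while *Icam1* is highest at P0.

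EnVL cells made up 1.55% of labelled cells at E12.5, 1.73% at E13.5, 2.48 and 2.91% at E16.5, 2.03 and 1.45% at P0, and 3.90 and 2.97% at W4. Both W4 libraries lay above both P0 libraries, the exact 95% binomial interval being 3.18 to 4.72% in W4 replicate 1 and 1.16 to 1.80% in P0 replicate 2, for counting error only. Over the 5 ages the share did not pass the threshold (edgeR on the cell numbers of the 19 subtypes, adjusted p = 0.0722), nor did the rise from P0 to W4 of 0.98 ± 0.30 (SE; adjusted p = 0.0552). The test over ages passed without P0 replicate 1 (adjusted p = 0.0210) or without P0 replicate 2 (adjusted p = 0.0480), and it gave 0.267 without W4 replicate 1. Among endothelial cells alone EnVL held 14.9 to 33.6%, highest in both P0 libraries. W4 cells passed an additional depletion step, whose part in these shares was not tested.

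**Figure D2:**
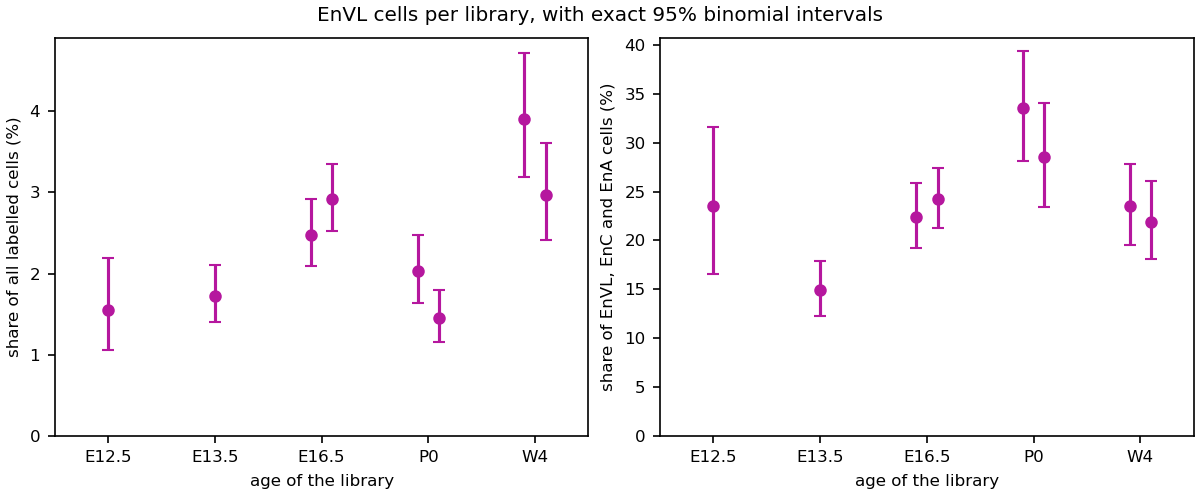
Share of EnVL among all labelled cells (left) and among the cells with 3 endothelial labels (right), in percent, 1 point per library by age with its exact 95% binomial interval. The left panel is highest at W4 and the right panel at P0.

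The 3 markers were then followed across the ages, with the UMIs summed over the EnVL cells of each library and the libraries as replicates. All of them rose from E16.5 to P0, and *Icam1* then fell to W4. *Selp* stood at 0 and 1.53 CPM on E12.5 and E13.5, 133.6 and 199 at E16.5, 445 and 532 at P0, and 573 and 306 at W4. It was thus near 0 before E16.5, and the P0 and W4 libraries overlapped. The rise from E16.5 to P0 was 1.52 ± 0.27 (log2, SE, n = 2 against 2; edgeR, adjusted p = 0.00407), and the later difference was -0.19 ± 0.26 (edgeR, adjusted p = 0.685). The share of EnVL cells with a *Selp* UMI was 0% and 1.03% on E12.5 and E13.5 and 58.8 to 85% from E16.5 on, against 0 to 7.34% in EnC. After thinning each cell to 2000 UMIs it was 20.6 and 24.7% at E16.5, 36.8 and 44.6% at P0, and 54.1 and 35.1% at W4, against 0 to 2.87% in EnC, so that P0 and W4 also overlapped at equal depth. At E12.5 0 of 31 cells held a *Selp* UMI, which allows a share of cells with a UMI of up to 9.68% (3 counts of the total) or 11.2% (exact 95% interval).

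*Vwf* held 206 and 171 CPM on E12.5 and E13.5, 142 and 168.5 at E16.5, 441 and 460 at P0, and 692 and 551 at W4. It was present at all ages, with both P0 libraries above all earlier ones. The gene rose by 1.51 ± 0.16 from E16.5 to P0 (edgeR, adjusted p = 0.000221), and its W4 libraries were 0.42 ± 0.16 higher without passing the test (edgeR, adjusted p = 0.0972).

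*Icam1* held 382 and 286 CPM on E12.5 and E13.5, 437 and 477 at E16.5, 625.2 and 991 at P0, and 308 and 253 at W4. P0 was the highest age and W4 lay below E16.5, with no overlap between neighbouring groups. From E16.5 to P0 it rose by 0.80 ± 0.20 (edgeR, adjusted p = 0.0231), a call that was lost without E16.5 replicate 1 (0.73), E16.5 replicate 2 (0.84) or P0 replicate 2 (0.40). From P0 to W4 it fell by 1.57 on the log2 scale (SE 0.21; edgeR, adjusted p = 0.000525). All 3 markers rising to P0 compares with 8.87% of the 10355 tested genes called higher at P0 than at E16.5, and 1 of 3 falling to W4 compares with 7.73% called lower at W4 than at P0. Over the 5 ages together, all 3 markers changed, as did 9 of the 12 venous genes, a list that includes the 3 markers. Of all tested genes 40.5% changed. The P0 libraries enter both steps, which are therefore not independent.

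Of the 12 venous genes 7, the 3 markers among them, rose from E16.5 to P0, and none fell. Over all tested genes 8.87% were called higher and 7.26% lower. The venous median was 1.15, against 0.05 over all tested genes. Of the 12 arterial genes 4 rose and none fell at this step, with a median of 1.08. The lists share members, so that their counts are not separate. *Selp*, *Icam1* and *Vcam1* are also among the adhesion genes, and *Ackr1* is among the chemokine genes. *Ackr1* held 54.6 and 58.5 CPM at E16.5, 291 and 246 at P0, and 822 and 473 at W4, after 14.3 and 6.87 on E12.5 and E13.5. Each of the 3 later ages lay above the one before it without overlap. It rose by 2.22 ± 0.24 (edgeR, adjusted p = 0.000227) and then by 1.22 ± 0.22 (edgeR, adjusted p = 0.00331). The share of EnVL cells with an *Ackr1* UMI was 12.9% and 8.25% on E12.5 and E13.5, 17.5 and 17.2% at E16.5, 33.7 and 43.4% at P0, and 68.0 and 39.2% at W4, against at most 6.59% in the EnC cells of any library. By this share P0 and W4 overlapped.

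*Lrg1* held 4.08 and 10.7 CPM on E12.5 and E13.5, 89.4 and 99.0 at E16.5, 451 and 268 at P0, and 1651 and 1248 at W4. It rose by 1.90 and then by 1.97 on the log2 scale (edgeR, adjusted p = 0.000403 and 0.000131), the largest rise to W4 among the venous genes tested. *Il6st* followed the same order, with 83.7 and 85.2 CPM at E16.5, 263 and 279 at P0, and 1054 and 679 at W4 (rises of 1.65 and 1.63; edgeR, adjusted p = 0.000446 and 0.000206). *Aplnr*, the receptor of apelin, went the other way after birth, from 415 and 618 CPM to 266 and 294 (a fall of 0.93 on the log2 scale; edgeR, adjusted p = 0.00665; -0.84 and no longer called without W4 replicate 1). *Nr2f2* held 99.3 to 208.2 CPM and did not pass the test over the ages (edgeR, adjusted p = 0.151). From P0 to W4, 3 venous genes rose and 2 fell, against 6.88% and 7.73% of all tested genes.

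Adhesion molecules were mixed in direction. Of 12 genes of leukocyte adhesion, 5 rose and 1 fell from E16.5 to P0 (median 0.10), against 8.87% and 7.26% of all tested genes, and 3 rose and 3 fell from P0 to W4 (median 0.26), against 6.88% and 7.73%. *Vcam1*, a ligand of the integrin VLA-4, held 2.04 and 14.5 CPM on E12.5 and E13.5, 92.0 and 183.8 at E16.5, 397 and 605 at P0, and 322 and 317 at W4. The P0 libraries were the highest, and the rise to P0 was 1.82 ± 0.29 (edgeR, adjusted p = 0.00216). *Sele*, which encodes E-selectin, held 80.5 and 76.9 CPM at E16.5, 133 and 265 at P0, and 106 and 55.5 at W4. Its rise of 1.30 to P0 (edgeR, adjusted p = 0.0150) was lost without E16.5 replicate 1 (1.33), E16.5 replicate 2 (1.24) or P0 replicate 2 (0.71), and its fall of 1.31 on the log2 scale to W4 (edgeR, adjusted p = 0.0202) without P0 replicate 2 (-0.71) or W4 replicate 2 (-0.96).

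*Jam2*, a junctional adhesion molecule, rose by 1.30 from E16.5 to P0 (edgeR, adjusted p = 0.00242), and *Icam2*, expressed by resting endothelium, fell by 0.93 on the log2 scale (edgeR, adjusted p = 0.00416). After birth *Cd34*, a sialomucin of endothelium, rose from 604 and 619 CPM to 1133 and 1351 (0.98 ± 0.14; edgeR, adjusted p = 0.000656), and *Pecam1*, which encodes the sort marker CD31, from 1035 and 1194 CPM to 2256 and 2068 (0.91 ± 0.12; edgeR, adjusted p = 0.000419). Both genes were thus 1.97 and 1.88 times higher at W4, while *Icam1* fell. *Madcam1*, the addressin of mucosal venules, held 38.2 and 19.8 CPM at P0 and 13.1 and 3.62 at W4, a fall of 1.77 on the log2 scale (edgeR, adjusted p = 0.0248) that was lost without P0 replicate 1 (-1.24) or W4 replicate 2 (-1.22) and with DESeq2 (-1.80).

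The label joins venous with lymphatic endothelium, and the lymphatic portion was sought as cells with UMIs of at least 2 of *Prox1*, *Lyve1*, *Reln* and *Pdpn*. These genes encode the lymphatic transcription factor, a hyaluronan receptor, the secreted protein reelin and podoplanin. Such cells numbered 48 of 838 EnVL cells (5.73%), against 6 of 2366 in EnC (0.254%) and 0 of 449 in EnA. By library they were 4 of 31 at E12.5 (12.9%), 15 of 97 at E13.5 (15.5%), 1 of 335 over both libraries at E16.5, 20 of 95 (21.1%) and 8 of 83 (9.64%) at P0, and 0 of 100 and 0 of 97 at W4. By this rule they were found at E12.5, E13.5 and P0, and at E16.5 and W4 in 1 cell only. The exact 95% intervals, for counting error only, were 13.4 to 30.6% and 4.25 to 18.1% for the P0 libraries and 0 to 1.86% for the 197 cells of W4. Where each cell was thinned to 2000 UMIs, 20 of 831 cells remained (2.41%), none of them among the 31 cells of E12.5, 8 at E13.5, 1 at E16.5, 8 and 3 at P0 and 0 at W4. With 1 UMI of *Prox1* as the rule 105 cells passed (12.53%), with 6 at E12.5, 30 at E13.5, 7 and 10 at E16.5, 26 and 24 at P0 and 1 in each W4 library. By the same rule EnC held 69 of 2366 cells (2.92%), with 8.79% at E12.5 and 3.04 and 2.57% at E16.5, and EnA held 4.49% at E16.5, so that the EnVL cells of E16.5 that pass it stand near this background. Cells at E12.5 were lost at equal depth.

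**Figure D3:**
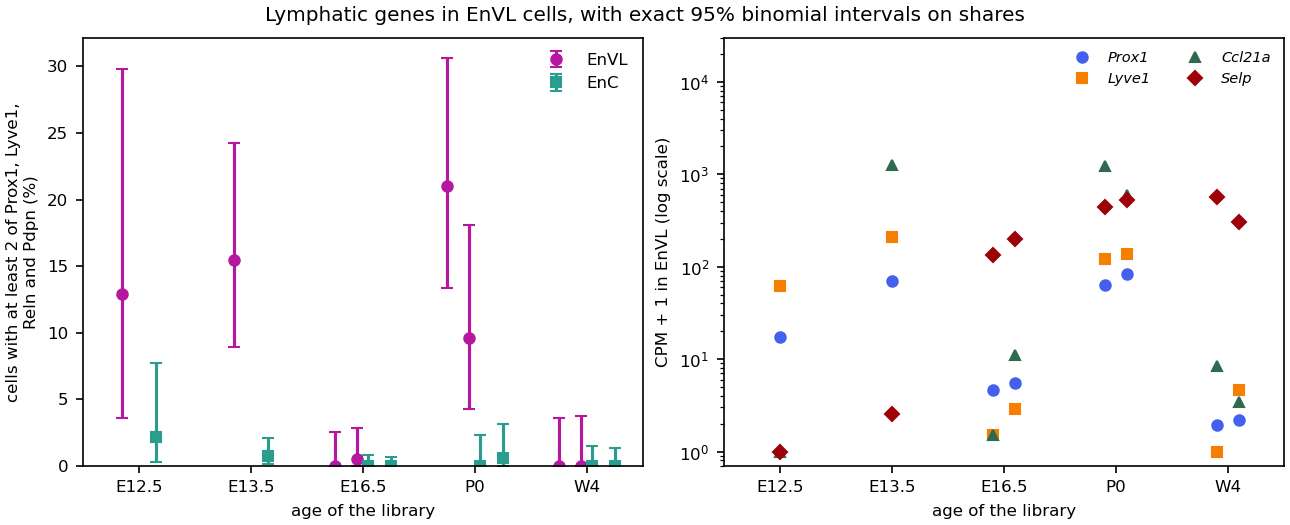
Left, share in percent of EnVL and EnC cells with UMIs of at least 2 of *Prox1*, *Lyve1*, *Reln* and *Pdpn*, 1 point per library. Right, CPM + 1 on a log axis of *Prox1*, *Lyve1*, *Ccl21a* and *Selp* in EnVL, with the lymphatic genes high at E13.5 and P0 and low at E16.5 and W4.

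The summed levels of the genes in the rule are tied to these cells, since the same genes chose the cells. They did not follow the cell number alone. P0 replicate 2, with 8 such cells, held more *Prox1* and *Lyve1* than P0 replicate 1, with 20. In P0 replicate 2, 41 UMIs of *Prox1* lay in the lymphatic cells and 34 in the other EnVL cells. *Prox1* held 16.3 and 68.7 CPM on E12.5 and E13.5, 3.64 and 4.50 at E16.5, 63.1 and 82.5 at P0, and 0.937 and 1.21 at W4. The P0 libraries lay far above those of E16.5 and W4, with a rise of 4.07 ± 0.28 to P0 (edgeR, adjusted p = 1.9e-05) and a ratio of P0 to W4 of 68.0 (18.5 to 567, counting error only). *Lyve1* held 119.01 and 135.2 CPM at P0 and 0 and 3.62 CPM at W4, or 257 against 3 UMIs, a ratio of 79.8 (27.0 to 390, counting error only). Of the 7 lymphatic genes 6 were tested, of which 5 rose to P0 (median 4.72), against 8.87% of all tested genes, and 6 fell to W4 (median -6.15, or -4.90 with *Reln*, at 0 in W4, set to its bound), against 7.73%. When the lymphatic cells were left out, 3 genes could be tested; 1 rose to P0 and 1 fell to W4, *Lyve1* no longer being called at either step (3.57 and -2.03), which the choice of the cells brings with it.

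Within E13.5, the 15 lymphatic cells held 7946 CPM of *Ccl21a*, 1247 of *Lyve1* and 172.6 of *Flt4*, the receptor of VEGF-C, and 0 of *Selp* and *Ackr1*, which were also low in the other 82 EnVL cells, at 1.81 and 8.17 CPM. These other cells held 0.907 CPM of *Ccl21a*, 329 of *Icam1* against 57.5 in the lymphatic cells, and 198 of *Vwf* against 28.8 CPM. *Nr2f2* stood at 216 CPM in the lymphatic and 166.96 in the other cells. At P0 the 20 lymphatic cells of replicate 1 held 5551 CPM of *Ccl21a* against 2.28 in the other 75 cells, and *Selp* stood at 117 against 538 CPM. In replicate 2 *Ccl21a* was at 4435 against 0 CPM, its UMIs lying in 2 of the 8 lymphatic cells, and *Selp* at 24.3 against 612 CPM. At P0 levels and shares of cells gave different orders for *Vwf*. It held 523 CPM in the lymphatic against 418 in the other cells of replicate 1, and 477 against 457 in replicate 2, but its UMIs lay in 35% against 81.3% and in 50% against 81.3% of the cells. *Icam1* held 656 against 616 CPM in replicate 1, in 60% against 90.7% of the cells, and 445 against 1076 CPM in replicate 2, in 87.5% against 88% of the cells. *Ackr1* held 246 against 304 CPM in replicate 1, its UMIs lying in 3 of 20 lymphatic cells, and 0 against 285 CPM in replicate 2. Differences in *Prox1* and *Lyve1* follow from the choice of these cells, and the other values are descriptions of single libraries. Without the lymphatic cells *Selp*, *Vwf* and *Icam1* still rose to P0 (1.73, 1.44 and 0.84) and *Icam1* still fell to W4 (-1.68).

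The listed chemokine genes mostly rose to P0 and moved in both directions after birth. *Cxcl13*, a chemokine gene outside the list, fell to P0 and is described below. Of 14 genes of chemokines and decoy receptors 12 were tested; 8 rose from E16.5 to P0 and none fell (median 2.04), against 8.87% and 7.26% of all tested genes, and 2 rose and 5 fell from P0 to W4 (median -1.14), against 6.88% and 7.73%. *Cxcl12*, the ligand of CXCR4, held 4.16 and 6.38 CPM at E16.5, 64.8 and 22.0 at P0, and 701 and 1229 at W4. The 3 ages did not overlap, and the gene rose by 4.39 ± 0.38 after birth (edgeR, adjusted p = 3.1e-05). Its earlier rise of 2.99 (edgeR, adjusted p = 0.00409) was lost without P0 replicate 1 (1.95).

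*Ccl21a*, a ligand of CCR7, held 0 and 1265 CPM on E12.5 and E13.5, 0.520 and 10.1 at E16.5, 1226 and 603 at P0, and 7.49 and 2.41 at W4. Its level at P0 lay in the lymphatic cells described above, and reads of its near-identical copies cannot be told apart. It could not be tested once those cells were left out, and the chemokine counts were then 6 rising to P0, and 2 rising and 4 falling to W4. *Ackr3*, a scavenger of CXCL12, held 9.35 and 11.6 CPM at E16.5, 166.97 and 147 at P0, and 7.49 and 24.1 at W4. P0 stood apart on both sides, with a rise of 3.85 and a fall of 3.43 on the log2 scale (edgeR, adjusted p = 2.6e-05 and 4.6e-05), and without the lymphatic cells the values were 3.23 and -2.80.

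The neutrophil chemokine *Cxcl1* held 56.1 and 64.2 CPM at E16.5, 157 and 205 at P0, and 30.9 and 32.6 at W4. Hence it too was highest at P0 (1.55 ± 0.17 and -2.55 ± 0.21; edgeR, adjusted p = 0.000294 and 2.3e-05). *Cxcl10*, an interferon-induced chemokine, held 315 and 333 CPM at P0 and 36.5 and 104 at W4, a fall of 2.29 on the log2 scale (edgeR, adjusted p = 0.00149) that was not called after thinning (-0.96). *Ccl2*, a monocyte chemokine, fell by 5.01 on the log2 scale to W4 (edgeR, adjusted p = 0.00301), a call that was lost without W4 replicate 1 (-4.15).

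**Figure D4:**
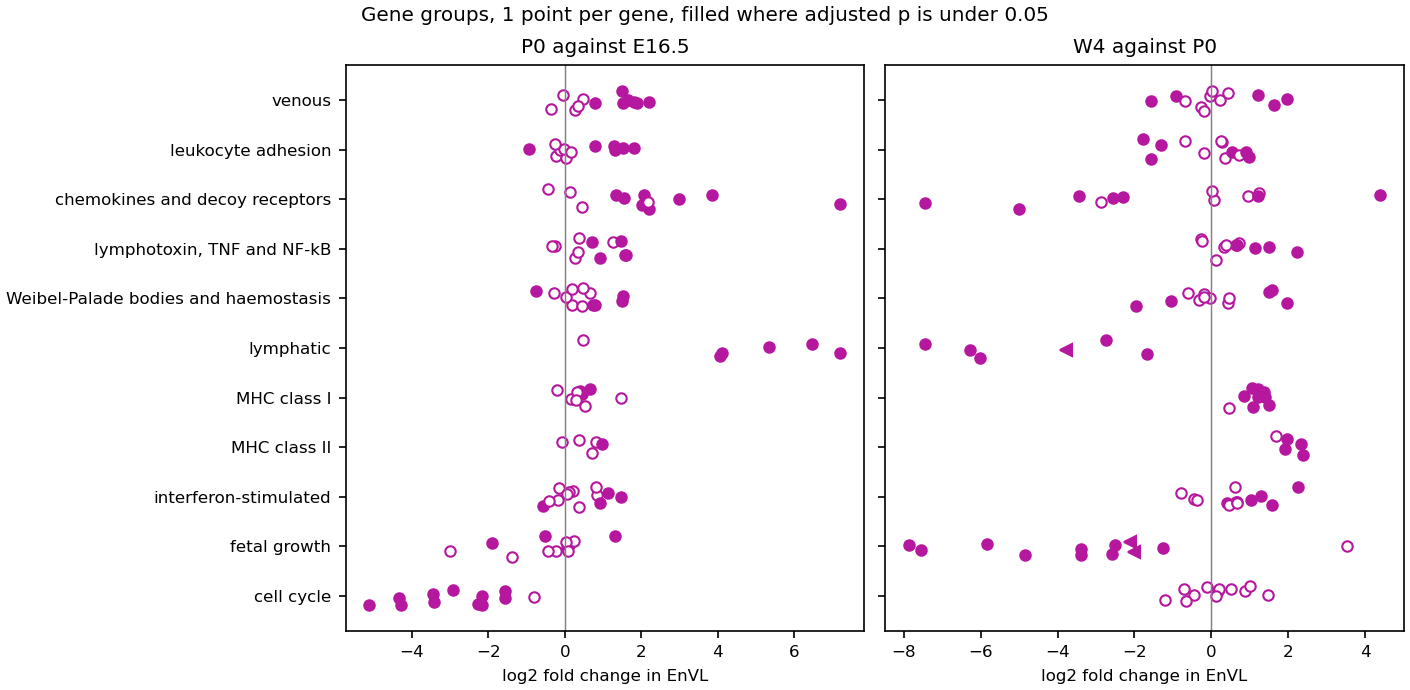
Log2 change in EnVL of each gene of 11 lists from E16.5 to P0 and from P0 to W4. Filled points have an adjusted p under 0.05 and triangles are drawn at the bound where 1 age held no UMI; cell cycle genes lie to the left in the first panel, and fetal growth genes to the left and MHC genes to the right in the second.

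Genes of the stores and surface that control clotting were also divided. Of 12 genes of Weibel-Palade bodies and haemostasis, 4 rose and 1 fell to P0 (median 0.46), against 8.87% and 7.26% of all tested genes, and 3 rose and 2 fell to W4 (median -0.11), against 6.88% and 7.73%. *F8* rose after birth from 64.8 and 42.9 CPM to 181 and 136.3 (1.5 ± 0.23; edgeR, adjusted p = 0.00140). *Angpt2*, a stored ligand of the TIE2 receptor, rose from 10.7 and 34.1 CPM to 97.4 and 75.98 (1.98 ± 0.38; edgeR, adjusted p = 0.00521; 1.79 and 0.88 and no longer called without W4 replicate 1 or after thinning). *Procr*, the endothelial protein C receptor, held 183 and 178 CPM at E16.5, 274 and 363 at P0, and 103.03 and 65.1 at W4, so that it followed *Icam1* in peaking at P0. Its fall was 1.95 on the log2 scale (SE 0.22; edgeR, adjusted p = 0.000141), while its rise of 0.79 was lost without E16.5 replicate 1 (0.81), E16.5 replicate 2 (0.75) or P0 replicate 2 (0.56) and with DESeq2 (0.79).

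Of 11 genes of lymphotoxin, TNF and NF-κB signalling, 5 rose to P0 (median 0.71), 5 rose to W4 (median 0.64) and none fell, with 8.87% and 6.88% of all tested genes called higher at these steps. *Traf1*, a signalling adaptor and NF-κB target, held 21.3 and 19.1 CPM at E16.5, 61.3 and 51.7 at P0, and 159 and 174 at W4. Its groups did not overlap, with rises of 1.47 and 1.51 (edgeR, adjusted p = 0.000969 and 0.000160). *Tnfaip3*, a feedback inhibitor, rose by 1.57 to P0 (edgeR, adjusted p = 0.00156), and *Tnfrsf1b*, a TNF receptor, by 2.24 to W4 (edgeR, adjusted p = 0.00123), the latter call being lost with DESeq2 (adjusted p = 0.0620) and after thinning each cell to 2000 UMIs (edgeR, adjusted p = 0.0858). *Birc3*, an inhibitor of cell death, rose at both steps (1.61 and 1.13; edgeR, adjusted p = 0.00354 and 0.00808), the second rise being lost without P0 replicate 1 (1.06) or W4 replicate 1 (0.83), with DESeq2 (adjusted p = 0.206) and after thinning (edgeR, adjusted p = 0.0790). The rises of *Traf1*, *Tnfaip3* and *Birc3* to P0 were also lost after thinning (1.38, 1.34 and 1.68; edgeR, adjusted p = 0.0913, 0.221 and 0.0906). *Ltbr*, the lymphotoxin β receptor, held 75.98 to 111.7 CPM from E16.5 on and was not called at either step. Without the lymphatic cells 3 of the 11 genes rose to W4.

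Antigen presentation genes rose together after birth. MHC class I presents peptides on all nucleated cells, with β2-microglobulin as the light chain and TAP and the immunoproteasome supplying the peptides. Of its 9 genes 8 rose from P0 to W4 (median 1.20), against 6.88% of all tested genes, and *Nlrc5*, a regulator of the class I genes, stood at 0.47 without passing the test. *H2-K1* held 8.17 and 29.0 CPM on E12.5 and E13.5, 1136 and 1232 at E16.5, 1587 and 1705 at P0, and 4111 and 4778 at W4. Each age lay above the one before, and the rise to W4 was 1.39 ± 0.11 (edgeR, adjusted p = 1.8e-05). *B2m* went from 1491 and 1455 CPM to 3206 and 3284 (1.10 ± 0.09; edgeR, adjusted p = 2.6e-05), and *H2-D1*, near-identical to *H2-K1* in part, rose by 1.22 ± 0.09 (edgeR, adjusted p = 1.2e-05). *Tap1* rose by 0.84, a call that was lost without P0 replicate 1 (0.53) or W4 replicate 2 (0.69), with DESeq2 (0.83) and after thinning (0.74).

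Of genes that rose with age, *H2-K1*, *B2m* and *Ackr1* were chosen because they hold a match to a broad form of the κB site of NF-κB. The pattern was GGRRNNYYCC, with R for A or G, Y for C or T and N for any base, and stricter forms were not searched. The 300 bases around their start sites (RefSeq, GRCm38.p6, 5′ to 3′ on the gene's strand, from 250 bases before to 50 after the start) are shown with the matches, searched on both strands, in capitals.
H2-K1 (chr17:34000298-34000597, minus strand): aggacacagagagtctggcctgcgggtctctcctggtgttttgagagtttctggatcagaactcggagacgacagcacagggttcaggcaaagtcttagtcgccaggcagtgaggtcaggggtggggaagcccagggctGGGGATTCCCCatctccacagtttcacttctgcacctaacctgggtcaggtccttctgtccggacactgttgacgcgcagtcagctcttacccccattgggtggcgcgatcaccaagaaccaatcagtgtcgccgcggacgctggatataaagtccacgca
B2m (chr2:122147437-122147736, plus strand): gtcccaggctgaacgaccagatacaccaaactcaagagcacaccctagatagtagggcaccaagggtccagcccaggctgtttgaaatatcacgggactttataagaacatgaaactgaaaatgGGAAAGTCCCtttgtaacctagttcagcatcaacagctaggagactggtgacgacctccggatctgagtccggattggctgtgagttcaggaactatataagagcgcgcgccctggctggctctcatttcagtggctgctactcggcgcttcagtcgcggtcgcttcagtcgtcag
Ackr1 (chr1:173333454-173333753, minus strand): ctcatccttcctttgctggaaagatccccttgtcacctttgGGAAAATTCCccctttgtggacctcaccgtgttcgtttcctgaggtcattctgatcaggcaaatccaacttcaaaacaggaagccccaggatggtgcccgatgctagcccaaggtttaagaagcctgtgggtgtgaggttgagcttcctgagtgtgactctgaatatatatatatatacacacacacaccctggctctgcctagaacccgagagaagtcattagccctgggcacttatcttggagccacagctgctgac
The matches began 111, 126 and 209 bases before the start of *H2-K1*, *B2m* and *Ackr1*, and the match in *H2-K1* is an overlapping pair. Of the class I genes that rose, 3 of the 7 with an entry held a match (*H2-K1*, *H2-D1* and *B2m*; 42.9%), against 12.6% of all 27025 genes. By windows of this length, of which a gene can have several, it was 4 of 8, against 11.2% of 32851. Of the 3 venous genes that rose to W4, *Ackr1* and *Il6st* held one and *Lrg1* did not. None of *Selp*, *Sele* and *Icam1* held one in this window. These matches are letters in the reference and no measurement of binding.

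MHC class II, which presents peptides to CD4 T cells, was low in EnVL and rose as well from P0 to W4, in 4 of the 5 genes tested of 6 listed, against 6.88% of all tested genes. *Cd74*, the invariant chain, held 0 and 0.763 CPM on E12.5 and E13.5, 19.7 and 40.1 at E16.5, 71.1 and 52.8 at P0, and 306 and 365 at W4. The W4 libraries lay above all others (2.38 ± 0.25; edgeR, adjusted p = 0.000105). *H2-Ab1* rose by 2.34 ± 0.44 (edgeR, adjusted p = 0.00447). Of 8 thymocyte and leukocyte genes tested 1 also rose over this step (median 1.17). The part of such cells in the class II values was not tested. Of 13 interferon-stimulated genes 7 rose to W4 and none fell (median 0.63), against 6.88% of all tested genes called higher and 7.73% lower. They were led by *Ly6a*, which encodes the surface protein SCA-1, with 389 and 384 CPM at P0 and 1332 and 2453 at W4 (2.25 ± 0.24; edgeR, adjusted p = 9.7e-05), and by *Ly6e* (1.58). Without the lymphatic cells 3 interferon-stimulated genes rose and 1 fell, while the class I and class II counts were 8 and 4 again.

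Growth genes of fetal life fell over the same step. Of 13 genes, among them imprinted ones, 12 were tested and 11 fell from P0 to W4 (median -4.12, or -2.98 with 2 genes at 0 in W4 set to their bounds), against 7.73% of all tested genes. *H19*, an imprinted noncoding RNA, held 1353 and 1632 CPM on E12.5 and E13.5, 227 and 252 at E16.5, 344 and 180.3 at P0, and 0 and 2.41 at W4. There were 551 UMIs at P0 and 2 at W4, a ratio of 257 (70.7 to 2125, counting error only). *Mest*, an imprinted hydrolase gene, held 3024 and 2810.5 CPM at E16.5, 835 and 767 at P0, and 35.6 and 124.2 at W4. It fell at both steps, by 1.89 and 3.39 on the log2 scale (edgeR, adjusted p = 0.00417 and 0.000136), and the earlier fall was not called with DESeq2 (-1.90). *Cdkn1c*, an inhibitor of the cell cycle, fell from 242 and 178 CPM to 16.9 and 25.3 (-3.38 ± 0.23; edgeR, adjusted p = 6.5e-06).

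Cell cycle genes fell from E16.5 to P0, 11 of 12 being lower at P0 (median -2.59), against 7.26% of all tested genes, and 0 of 12 being called from P0 to W4, against 14.6% (edgeR; 1 at an unadjusted p under 0.05, and 0 by DESeq2). *Birc5*, which encodes survivin, held 174 and 48.0 CPM at E16.5 and 8.88 and 1.10 at P0 (-4.34 ± 0.78; edgeR, adjusted p = 0.00448; -3.64 and no longer called without P0 replicate 2). The cyclin gene *Ccna2* held 62.9 and 13.1 CPM at E16.5 and 0.888 and 1.10 at P0. Both genes were higher in E16.5 replicate 1 than in replicate 2. *Ccna2* was near 0 at P0 already, as was *Birc5* in P0 replicate 2, so that a further fall to W4 could hardly be seen for them. Proliferating cells have a label of their own in the annotation, whose part in these values was not tested.

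Immediate early genes, which are induced within minutes by growth factors and also by tissue dissociation, mostly rose to P0 and then fell. Of 10 immediate early and heat shock genes, 8 rose and 1 fell to P0 (median 1.13), against 8.87% and 7.26% of all tested genes, and 2 rose and 6 fell to W4 (median -0.64), against 6.88% and 7.73%. *Fos* held 1337 and 1517 CPM at E16.5, 3579 and 3542 at P0, and 2202 and 2020.1 at W4. The heat shock gene *Hspa1b*, near-identical to *Hspa1a*, went from 28.4 and 9.90 CPM at P0 to 536 and 449 at W4 (4.58 ± 0.30; edgeR, adjusted p = 4.5e-06). Of 6 flow-responsive genes 3 rose and 0 fell to P0, and 0 rose and 2 fell to W4, against the same shares of all tested genes. *Klf2*, a transcription factor induced by blood flow, held 592 and 634 CPM at E16.5, 1686 and 1726 at P0, and 1057 and 1147 at W4. It rose by 1.45 ± 0.11 and fell by 0.67 on the log2 scale (edgeR, adjusted p = 3.5e-05 and 0.00214), and *Klf4* moved in the same directions (1.92 and -0.73), its fall being lost without P0 replicate 2 (-0.54) or W4 replicate 1 (-0.52) and after thinning (-0.59). The part of tissue dissociation in these values was not tested.

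Of 10 genes of lymphoid growth factors and Notch ligands, which act on thymocytes, 9 were tested. Of these 4 rose to P0 (median 0.57), against 8.87% of all tested genes, and 1 to W4 (median 0.02), against 6.88%. The Notch ligand *Dll1* held 31.2 and 27.8 CPM at E16.5, 67.5 and 67.1 at P0, and 89.0 and 71.2 at W4, a rise of 1.17 ± 0.19 to P0 (edgeR, adjusted p = 0.00268) that was lost with DESeq2 (1.16) and after thinning (0.93). *Dll4* held 39.1 and 45.1 CPM at P0 and 86.2 and 88.0 at W4 (1.01 ± 0.19; edgeR, adjusted p = 0.00490; 0.85 and no longer called without P0 replicate 1, nor called with DESeq2). *Kitl*, the ligand of KIT, held 154.6 to 257 CPM from E16.5 on and was not called at either step. Of 13 basement membrane genes 2 rose and 3 fell to P0, against 8.87% and 7.26% of all tested genes. From P0 to W4, 4 rose and 3 fell, against 6.88% and 7.73%. Among them, *Col18a1* fell after birth from 179.4 and 176 CPM to 15.9 and 8.44 (-3.86 ± 0.24; edgeR, adjusted p = 3.4e-06), while *Col15a1*, of the same collagen family, rose from 294 and 285 to 984 and 821 (1.60 ± 0.14; edgeR, adjusted p = 3.5e-05).

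Outside the lists, the genes with the largest rises from P0 to W4 included *Prg2*, which encodes a granule protein known from eosinophils, with 0 UMIs in both P0 libraries and 83.4 and 68.7 CPM at W4 (at least 52.2-fold, from 3 UMIs over both P0 libraries). *Dsg2*, a desmosomal cadherin, went from 0 in both to 81.5 and 59.1 CPM (at least 48.6-fold), with 1.87 and 2.45 CPM in EnC at W4. *Fmo2*, a flavin monooxygenase, rose from 9.77 and 5.50 CPM to 266 and 324 (5.17 ± 0.26; edgeR, adjusted p = 3.4e-06), and *Ltc4s*, the leukotriene C4 synthase, from 12.4 and 1.10 to 115.2 and 186.9 (4.30 ± 0.48; edgeR, adjusted p = 0.000132). Among the largest falls, *Gap43*, a protein of growing axons, went from 54.2 and 30.8 CPM to 0 in both W4 libraries (at least 27.6-fold lower). *Tbx1*, a transcription factor of pharyngeal development, went from 54 UMIs over both P0 libraries to 0 at W4 (at least 16.8-fold lower). The paper, by contrast, reports *Tbx1* expression in this stroma at E12.5 only. From E16.5 to P0, the secreted protein gene *Agr2* rose from 0 UMIs (at least 42.8-fold) and *Cxcl13*, the ligand of CXCR5, fell from 160 UMIs to 1.

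Whether the change from P0 to W4 differed between the endothelial labels was tested in 1 fit with the library as a block. It did so for 281 of 11748 genes (2.39%) between EnVL and EnC, 0.945% of all having the higher change in EnVL and 1.45% the lower. Between EnVL and EnA it did so for 261 genes (2.22%), 1.06% with the higher and 1.17% with the lower change in EnVL. Of the 3 markers only *Vwf* was called, and only against EnA (1.01 ± 0.25; edgeR, adjusted p = 0.0303); the call was lost without any 1 of the 4 P0 and W4 libraries (0.97 to 1.18). *Vcam1* rose in EnC from 25.4 and 34.2 CPM to 87.3 and 63.2 while its EnVL libraries went from 397 and 605 to 322 and 317, and the difference in change was -1.98 ± 0.38 (edgeR, adjusted p = 0.00299; -1.75 and no longer called without W4 replicate 1). *Lrg1* rose more in EnVL than in EnC, by 1.18 ± 0.27 (edgeR, adjusted p = 0.0147). This call was lost without P0 replicate 2 (0.97) or W4 replicate 1 (0.98). Against EnA the change of neither gene was called to differ, at -0.65 for *Vcam1* and -0.33 for *Lrg1* (edgeR, adjusted p = 0.513 and 0.930).

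*Cxcl12* rose more in EnVL than in EnA, by 4.22 ± 0.31 (edgeR, adjusted p = 1.6e-08), EnA holding 1997 and 1741 CPM at P0 and 2238 and 2280.1 at W4. Against EnC, where it went from 282 and 135.9 CPM to 3272 and 2887, its change was not called to differ (0.49 ± 0.31; edgeR, adjusted p = 0.585). *Ackr3* fell in EnVL while EnC went from 18.9 and 16.3 to 26.2 and 38.0 CPM (-4.26 ± 0.42; edgeR, adjusted p = 1.6e-06). *Cdkn1c* fell more in EnVL than in EnC and EnA (-2.41 and -2.43; edgeR, adjusted p = 0.000203 and 0.000489). *Procr* fell more in EnVL than in EnC (-1.90 ± 0.33; edgeR, adjusted p = 0.00108; -1.31 and no longer called without W4 replicate 2).

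Of the MHC class I, class II and NF-κB lists 0 genes were called to change differently in EnVL from either other label (edgeR), where 2.39% and 2.22% of all genes were called. *H2-K1*, for example, went from 989 and 704 CPM to 2783 and 2968 in EnC, and the difference in change was -0.37 ± 0.19 (edgeR, adjusted p = 0.458). At an unadjusted p under 0.05, 1, 0 and 1 of the class I, class II and NF-κB genes passed against EnC and 2, 1 and 4 against EnA. Other lists did hold called genes. Of 13 interferon-stimulated genes 3 had a lower change in EnVL than in EnC and 2 than in EnA, against 1.45% and 1.17% of all genes. Of 12 genes of Weibel-Palade bodies and haemostasis 5 were called against EnC, 2 with the higher and 3 with the lower change in EnVL, and 2 against EnA.

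The bulk CD31+ libraries offered the same step in cells that the labels had not sorted, with all endothelium together. In such samples fewer cells of a type and less RNA per cell cannot be told apart. Of 11333 tested genes 577 (5.09%) were called, 3.19% of all being higher and 1.91% lower at 4 weeks. With the title prefix as a term in the fit 535 genes were called. *Selp* held 25.1, 153 and 228 CPM (lowest, median and highest of 6) at P0 and 409, 721 and 897 at 4 weeks. The ages did not overlap, and *Selp* rose by 2.38 ± 0.40 (edgeR, adjusted p = 0.00255), where EnVL alone gave -0.19; the 2 values were not set against each other in a test. *Vwf* held 116, 259.9 and 351 CPM at P0 and 609, 675 and 817 at 4 weeks (1.57; edgeR, adjusted p = 0.000722). *Icam1* held 83.6, 166 and 219 CPM and then 167.1, 197 and 239, which overlapped (0.41; edgeR, adjusted p = 0.344).

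**Figure D5:**
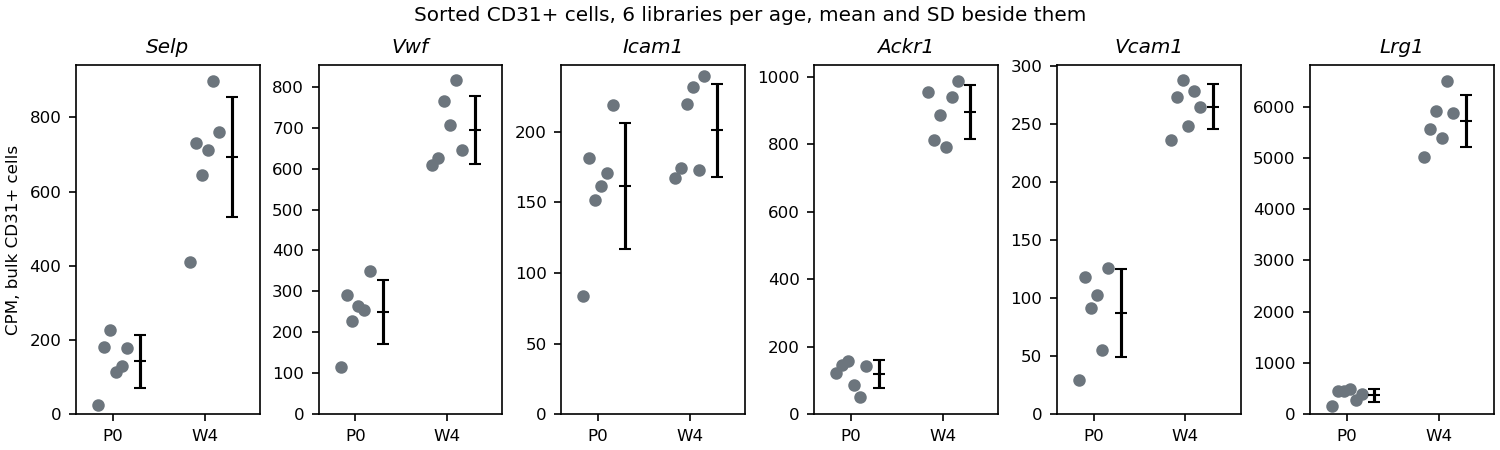
CPM of *Selp*, *Vwf*, *Icam1*, *Ackr1*, *Vcam1* and *Lrg1* in bulk CD31+ cells, 6 libraries each at P0 and 4 weeks, with the mean and SD. *Icam1* overlaps between the ages, and the other 5 genes do not.

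Of the 12 venous genes 6 rose and 1 fell in the bulk libraries, against 3.19% and 1.91% of all tested genes. *Ackr1* rose from a median of 133 to 913 CPM (3.03; edgeR, adjusted p = 6.3e-06) and *Lrg1* from 417 to 5730.01 CPM (4.05; edgeR, adjusted p = 1.1e-06), in both cases without overlap. *Vcam1* held 29.4, 97.1 and 126 CPM at P0 and 236, 269 and 287 at 4 weeks (1.70; edgeR, adjusted p = 0.00327). *Cxcl12* (2.95), *H2-K1* (1.61) and *Cd74* (3.26) were also higher at 4 weeks, and *Mest* was lower, at medians of 4824 and 139.6 CPM. *Prox1* held at most 8.95 CPM at P0 and was listed at 0 in all 6 libraries at 4 weeks. At P0 *Lyve1* held at most 9.58 CPM and *Ccl21a* at most 0.944 CPM, far below their P0 levels in EnVL given above. Of the 7 lymphatic genes 2 were tested in the bulk libraries and 0 were called, against 5.09% of all tested genes. How much lymphatic endothelium these libraries hold was not tested. Of the 12 cell cycle genes 4 fell in the bulk libraries (median -2.05), against 1.91% of all tested genes. In EnVL 0 of the 12 were called over this step. Red cell genes rose in 5 of 5 (median 5.35), and of the 4 mural markers tested 1 rose (median 2.04), both against 3.19% of all tested genes. The latter was *Rgs5*, a gene of pericytes, at medians of 56.4 and 1143 CPM (4.22; edgeR, adjusted p = 0.000115). The part of red cells and mural cells in these values was not tested.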

How the data were processed

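UMI counts per gene and cell were those the authors deposited without normalization, made with Cell Ranger 3.1.0 after removal of cells of 1000 genes or fewer or of at least 5% mitochondrial UMIs, of doublets and contaminating clusters; cell labels were theirs. The bulk table holds raw read counts per gene as the authors deposited them, the submitters' notes naming STAR 2.5.3a and HTSeq and, without roles, the builds GRCh38 and mm10; entries of no gene (10.4 to 13.5% of counts) were left out, and 37607 of 39179 IDs matched a symbol. UMIs of 22231 genes were summed over the cells of a label and library (at least 20 cells) and tested with edgeR 4.0.16 in R 4.3.3 (filterByExpr, TMM, quasi-likelihood test, Benjamini-Hochberg adjusted p under 0.05). Ages with 1 library are assumed to vary like the others; label comparisons took the library as a block. Alternatives were DESeq2 1.42.0, other scaling, filters, thinning to 2000 UMIs and leaving out libraries or cells. Levels and shares were computed with Python 3.11.15, numpy 2.4.6, scipy 1.17.1 and pandas 2.3.3. Bulk libraries held 9131362 to 14827366 counts. The tests were first run on simulated counts with known changes. Members and gene lists were chosen with earlier results of these data known. Genes named outside the lists were taken from those with the largest changes, at most 8 in each direction and step, among called genes of at least 20 CPM whose libraries did not overlap; for label comparisons at most 5, and for EnVL against EnC and EnA the 12 genes of the largest smallest difference; not all genes that this rule gives are described, and some are not reported here. The study describes 2 thymi for each age from E16.5 on, but no label ties a library to a thymus, so that p-values may measure technical spread.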

Additional observations from a re-analysis of the deposited data

Results flagged for a closer look

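In the bulk CD31+ cells at 4 weeks, 1 of the 6 libraries stood apart from the others for 4 of 19 genes whose 38 groups of 6 libraries were checked, where chance alone flags about 1 in 20 groups. *Cxcl12* was at 3024 CPM in that library, against 1983 to 2183 in the others. *Lyve1* was at 1.56 CPM and *H19* at 3.84 CPM, each with 0 in the other 5 libraries. With 5 libraries at 0, any value above 0 in the remaining library is flagged. The rate of 1 in 20 therefore does not apply to *Lyve1* and *H19*. *Ccl21a* was at 14.7 CPM in 1 library and at 0.391 to 2.96 in the rest. The library that stood apart was a different one for each of these genes.

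The change from P0 to W4 differed between EnVL and EnC, by the interaction test of edgeR, in the 9 genes that follow, among others. Values are the log2 change in EnVL minus that in EnC, with positive values where EnVL rose more or fell less. The difference was 2.31 for *Cotl1*, a regulator of actin, 2.08 for *Vwa1*, an extracellular matrix protein, 1.68 for the MARCKS-like gene *Marcksl1* and 1.68 for the protocadherin *Pcdh17*. *Cotl1* held 128 and 103.4 CPM at P0 and 133.9 and 117 at W4 in EnVL, while EnC held 145.97 and 123.5 and then 29.9 and 27.6. *Pcdh17* stood at 114.6 and 144.04 CPM and then at 260.4 and 145.9 in EnVL, and at 355 and 381 and then at 215 and 139.3 in EnC. The difference was -11.66 for *Ccl21a*, which EnC nearly lacked at P0, -4.59 for the sialoglycoprotein gene *Cd24a*, -4.26 for *Ackr3*, -2.69 for *Eln*, which encodes elastin, and -2.38 for *Rassf9*. *Rassf9* rose from 103.02 and 121 to 158.3 and 182.1 CPM in EnVL and from 29.98 and 25.8 to 223 and 207 in EnC. *Eln* went from 2938 and 2131 to 230.4 and 223 CPM in EnVL and from 369 and 154.9 to 132.1 and 142.98 in EnC. Without the lymphatic cells the difference for *Ccl21a* was -2.05 and no longer called.

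Against EnA the same test called, among others, the 9 genes that follow. The difference was 4.22 for *Cxcl12*, 2.49 for *Ehd4*, a protein of endosomes, 1.86 for the lysosomal protease *Ctsl* and 1.19 for the intermediate filament *Vim*. *Ctsl* rose in EnVL from 552 and 452 CPM at P0 to 2554 and 2051 at W4, against 341 and 278 and then 382 and 390.4 in EnA. The difference was -4.98 for *Stmn2*, a microtubule regulator, -3.83 for *Tmem158*, -3.58 for *Rgcc*, -3.18 for the endothelin receptor *Ednrb* and -1.13 for *Gnas*, the stimulatory G protein. *Stmn2* fell in EnVL from 100.4 and 75.9 CPM to 0 and 4.82, and stood at 605 and 766 and then at 599 and 450.3 CPM in EnA. *Tmem158* fell from 341 and 402 to 9.37 and 39.8 CPM in EnVL, against 163.1 and 281 and then 183.8 and 196 in EnA.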

How the results depend on the processing

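Numbers of called genes depended on the test and the depth. DESeq2 called 2059 genes over the 5 ages, 497 between E16.5 and P0 and 650 between P0 and W4, in place of 4195, 1670 and 1512 with edgeR, and thinning each cell to 2000 UMIs left 1601, 431 and 571. Leaving out 1 library gave 3098 to 4303 genes over the ages, 555 (without E16.5 replicate 1) to 1715 between E16.5 and P0, with 967 without E16.5 replicate 2 and 686 without P0 replicate 2, and 798 (without W4 replicate 1) to 1487 between P0 and W4, with 958 without P0 replicate 1. The comparisons of EnVL with EnC and EnA gave 480 and 400 genes without a filter on low counts, and 106 to 305 and 89 to 251 with 1 library left out, lowest without W4 replicate 1. The adjusted p of the EnVL share ran from 0.0210 to 0.267 over the libraries left out, 0.0210 without P0 replicate 1 and 0.0480 without P0 replicate 2. Lymphatic cells were 2.41% after thinning and 12.53% by 1 UMI of *Prox1*. Other scaling, other filters and leaving out cells kept these counts within 1.5 times; the cause of the differences was not tested.

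The replicate number was also used as a block, which left out the unreplicated E12.5 and E13.5. This gave 3247 genes called over the remaining 3 ages, 1444 between E16.5 and P0 and 1332 between P0 and W4. The log2 differences of replicate 1 from replicate 2 within an age were compared over genes with those of another age. These differences correlated at 0.0103 to 0.127 only, so that the replicate numbers were not taken to pair libraries across ages. Of the genes called and named or listed, 51 of 120 passed between E16.5 and P0 under all alternatives that tested them. The counts were 74 of 138 between P0 and W4, 19 of 47 and 24 of 43 against EnC and EnA, and 70 of 77 in the bulk libraries. A gene that an alternative could not test was not counted as lost there, so that these counts are upper limits. Between E16.5 and P0, *Cxcl16*, *Dll1* and *Mest* were lost with DESeq2, and *Traf1*, *Birc3* and *Tnfaip3* after thinning; between P0 and W4, *Tnfrsf1b* was lost with both, and *Cxcl10* and *Angpt2* after thinning. *Cd63* and *Gdf10*, called higher at P0 than at E16.5 (0.73 and 2.13), turned to -0.00225 and -1.57 without the lymphatic cells, where neither was called. *Fmo2*, called to change more in EnVL than in EnA (4.58), ran from -2.76 (without P0 replicate 1, not called) to 5.25 over the libraries left out.

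Depth limits the rare genes: W4 held 197 EnVL cells, and E12.5 and E13.5 are 1 library each. The label came from the same counts, so the cells that it gathers at each age cannot be told apart from a change within them.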
